A study of Mus musculus with 15 samples.

Results

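The 4 RNA libraries from mouse lymphomas that carried an empty vector (EV) are described here, out of 15 samples in the series. They were chosen by label alone, as the RNA count tables whose transduction is given as empty vector. The 5 RNA libraries with a hairpin against Kmt2d and the 6 ChIP samples for H3K4me1/2 (3 EV and 3 sh-Kmt2d) were not used. The cells were taken straight from tumours of mice, without culture, and enriched on magnetic beads for B220 (CD45R), a form of the surface protein CD45 on B cells and on plasmacytoid dendritic cells. The labels give no strain, age, sex, driver transgene or host. From knowledge of the published study and not from the labels, the lymphomas arose from blood progenitors with a Bcl2 transgene under Vav regulatory sequences, which were transduced and transplanted into irradiated mice, so that host cells can be present. The 4 libraries form 1 group, so there is nothing to test between groups, and each statement below is a level or a spread over these libraries. The labels do not say that each library came from a separate mouse, so the spread may in part be technical. EV replicates are numbered in the order of their records. EV replicate 1 has the title number 78 and EV replicates 2, 3 and 4 have 87; what the number stands for is not given in the sources used here.

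Mature B cells carry an antigen receptor made of immunoglobulin heavy and light chains with the signalling chains Cd79a and Cd79b. After contact with antigen they can enter germinal centres, where Bcl6 holds the programme, antibody genes mutate and switch class, and cells divide fast. Cells that leave can become plasma cells under Prdm1 and Xbp1. Follicular and marginal zone cells are resting states before that reaction, and B cell precursors are marked by the recombination genes and the surrogate light chain.

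Counts on genes were 13024141, 13764747, 18653468 and 25539223 in EV replicates 1 to 4. Levels are given as CPM, counts per 1000000 counts on genes, and a level of 1 CPM rests on 13 to 25.5 counts. CPM is not divided by transcript length, so levels are compared between libraries and not between genes. Of 37583 gene rows, 11890 (31.6%) were at 1 CPM or more in all 4 libraries. Kmt2d (ENSMUSG00000048154), which the empty vector does not target, stood at 545, 283, 527 and 104 CPM in EV replicates 1 to 4. EV replicate 4 was the lowest.

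EV replicate 4 stood apart from the others in several ways that bear on the results. In it 6.08% of alignments lay outside genes, against 9.77% to 12.9% in the others, and 47.9% were not unique and so not counted, against 36.5% to 42.5%. Each of 18 genes with very long transcripts, listed after values were seen, was lowest there, against 36.1% of all genes with a mean of at least 5 CPM. Kmt2a, the H3K4 methyltransferase MLL1, stood at 1048, 536, 938 and 301 CPM in EV replicates 1 to 4. Macf1, a giant linker of the cytoskeleton, stood at 1996, 1574, 2756 and 535 CPM. Malat1, a long RNA kept in the nucleus, stood at 1842, 1068, 2105 and 268 CPM. For each, EV replicate 4 lay well below the lowest of the others.

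Sex-linked genes separated the libraries as well. Ddx3y, a Y-linked RNA helicase, stood at 204, 161, 199 and 0.235 CPM in EV replicates 1 to 4. Xist, the RNA that silences an X chromosome in female cells, stood at 0.921, 85, 5.84 and 221 CPM. EV replicate 4 had Xist and almost no Y-linked reads, with Kdm5d, Eif2s3y and Uty at 0.274, 0.157 and 0.117 CPM. EV replicate 1 had the reverse. EV replicate 2 had both Xist and Ddx3y, as did EV replicate 3 with less Xist. The origin of the cells behind each was not tested.

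B cell identity genes were present in every library, as the enrichment label states. All 18 genes of the list were above 1 CPM in all 4 libraries. None differed by over 4-fold between the highest and the lowest library on the CPM + 1 scale. Of the 10333 genes with a mean of at least 5 CPM, 2.45% did. That share is the background for each list below in which genes past 4-fold are counted. In bulk RNA, fewer cells of a type and less RNA per cell cannot be told apart. The median SD of log2(CPM + 1) was 0.21 over the list and 0.23 over all these genes.

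Ms4a1, which encodes the surface protein CD20, stood at 1851, 2083, 1990.5 and 2461 CPM in EV replicates 1 to 4. Cd79a, a signalling chain of the receptor, stood at 1083, 1570.5, 1225 and 1499 CPM. Both were close in the 4 libraries, with EV replicate 1 lowest. Cd22, an inhibitory coreceptor, was among the steadiest at 2577, 2521, 2494 and 2316 CPM, a mean of 2477 ± 113 CPM (SD, n = 4). Cd180, a Toll-like receptor relative, stood at 384, 399, 362 and 358 CPM. Their order was not that of Ms4a1, since both were lowest in EV replicate 4. Bank1, a scaffold of receptor signalling, stood at 428, 777, 639 and 415 CPM, and EV replicates 2 and 3 were above the others. Fcmr, the receptor for the Fc part of IgM, stood at 536, 1022, 723 and 891 CPM and was lowest in EV replicate 1. Ptprc, the gene of CD45 itself, stood at 1929, 1980.3, 1972 and 1629 CPM, nearly level but for a lower EV replicate 4.

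Reads fell on both the IgM and the IgG constant genes in every library. Ighm, the constant gene of IgM, stood at 11854, 11826, 11549 and 12814 CPM in EV replicates 1 to 4 and was the steadiest of the immunoglobulin constant genes. Its share of the counts on the 6 heavy chain constant genes measured was 38.4, 60.4, 48.1 and 41.8%, with a mean of 47.2% ± 9.68 (SD, n = 4). The 4 IgG genes together took 61.6, 39.6, 51.9 and 58.1%. EV replicate 2 was the only library in which Ighm took more than the 4 IgG genes together. These are shares of reads and not of cells, and unswitched cells can also transcribe IgG constant genes.

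The IgG subclasses differed among the libraries to unequal degrees. Ighg3 stood at 2437, 235, 425 and 2589.9 CPM in EV replicates 1 to 4. Ighg1 stood at 2769.6, 516, 1128 and 4294 CPM. For both, EV replicates 1 and 4 were above EV replicates 2 and 3 with no overlap. The same holds for 19.6% of all genes at a mean of at least 5 CPM, and the split was noticed in the data. Both genes were over 4-fold between the highest and the lowest library. Without EV replicate 2, 1 of the 2, Ighg3, was. Ighg2b stood at 6319, 3541, 4673 and 6462 CPM, in the same order of pairs but with a smaller gap. Ighg2c stood at 7478, 3456, 6221 and 4451 CPM and did not share that order, since EV replicate 3 lay above EV replicate 4. Ighe, the constant gene of IgE, stood at 3.69, 1.38, 3.59 and 7.95 CPM. Jchain, which joins IgM and IgA polymers for secretion, stood at 5577, 2218, 3646 and 5059.6 CPM, again with EV replicates 1 and 4 on top. Ighd, Igha, Iglc1 and Iglc3 were not matched to a row and were not analysed here.

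**Figure D1:**
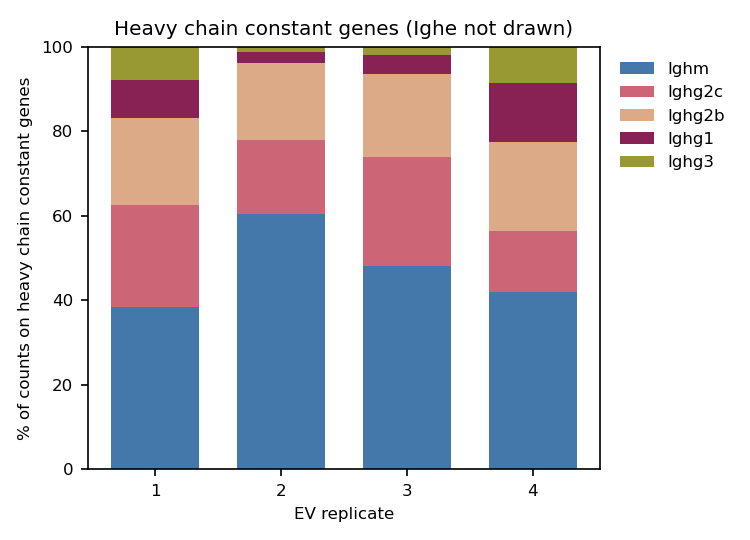
Share of the counts on heavy chain constant genes (y axis, percent) taken by each constant gene in each EV library (x axis, replicate); bars are single libraries. Ighm takes 38.4% in replicate 1 and 60.4% in replicate 2, and the Ighg1 and Ighg3 parts are small in replicates 2 and 3.

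Most of the light chain reads that were counted fell on kappa genes. Igkc, the kappa constant gene, took 96.4, 93, 93.9 and 94.6% of the counts on Igkc and Iglc2 in EV replicates 1 to 4. Iglc1 and Iglc3 were not matched to a row, so the kappa share may be too high. Named kappa variable segments summed to 5005, 2315, 4108 and 4418 CPM. The 3 named lambda segments summed to 944, 615, 964 and 943 CPM, a larger lambda part. Among 59 kappa variable segments with a name, a different segment led in each library. Igkv2-137 led EV replicate 1 with 31.6% (31.2% to 31.9%) of the kappa segment counts, the bracket being the exact 95% binomial interval. Igkv5-39 led EV replicate 2 with 14.1% (13.7% to 14.5%). Igkv8-30 led EV replicate 3 with 20.3% (20% to 20.6%). Igkv4-74 led EV replicate 4 with 14% (13.8% to 14.2%). The intervals cover counting error only. The effective number of kappa segments, that is the number of equally used segments with the same concentration (inverse Simpson index), was 7.15, 16.9, 12.4 and 14.7 in EV replicates 1 to 4, lowest in EV replicate 1.

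The leading segments were also used in the other libraries. Igkv5-39 stood at 458, 327, 503 and 268 CPM in EV replicates 1 to 4, so that the segment that led EV replicate 2 was at a higher level in EV replicates 1 and 3. Igkv2-137 stood at 1581, 58.4, 61.3 and 575 CPM in EV replicates 1 to 4. Igkv8-30 stood at 119, 88.1, 833 and 231 CPM. Igkv2-137 was high in EV replicates 1 and 4 and Igkv8-30 in EV replicate 3. Among 27 heavy chain variable segments with a name, Ighv1-18 led EV replicate 1 with 32% (30.9% to 33%) of their counts and EV replicate 3 with 24.6% (23.9% to 25.2%). Ighv3-6 led EV replicate 2 with 22.9% (22% to 23.9%), and Ighv7-3 led EV replicate 4 with 23.1% (22.6% to 23.6%). Segments without a symbol in the name tables, and reads shared by near-identical segments, are missing from these shares, which are therefore uncertain.

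Genes of B cell precursors were mostly near the limit of detection. Of 13 members, 6 were under 1 CPM in all 4 libraries. Rag2, a subunit of the V(D)J recombinase, had 0 counts in each library, which allows at most 0.117 to 0.23 CPM depending on the library (3 counts; counting error only). Rag1, the other subunit, stood at 9.6, 2.11, 3.91 and 4.54 CPM, highest in EV replicate 1. The surrogate light chain genes Igll1, Vpreb1 and Vpreb2 did not exceed 0.307 CPM in any library. Vpreb3, which mature B cells also express, stood at 53.1, 51.2, 56.1 and 80.8 CPM. Flt3, a cytokine receptor that dendritic cells carry too, stood at 59, 37.1, 48.8 and 62 CPM.

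Germinal centre genes were detected in every library and were highest in EV replicates 1 and 4. Of 14 members, 13 were above 1 CPM in all 4 libraries, and Mef2b had 0 counts in each. For all 13 measured members, EV replicates 1 and 4 both lay above EV replicates 2 and 3, against 19.6% of all genes at a mean of at least 5 CPM. Taken one at a time, EV replicate 1 lay above EV replicates 2 and 3 for 32.9% of all genes and EV replicate 4 for 43.1%. These pairs were noticed in the data and are no design of the study. The mean log2(CPM + 1) over the list was 7.76, 6.88, 7.17 and 7.90 in EV replicates 1 to 4.

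S1pr2, the receptor that confines cells to the germinal centre, stood at 521, 239, 291 and 684 CPM in EV replicates 1 to 4. Gcsam, a germinal centre signalling adaptor, stood at 425, 159.8, 234 and 739 CPM. For both, EV replicate 2 was lowest and EV replicate 4 highest. Bcl6, the repressor at the head of the programme, varied less at 457, 251, 335 and 388 CPM. Mybl1, a transcription factor of germinal centre cells, stood at 585, 205, 302 and 363 CPM. For Bcl6 and Mybl1 the highest library was EV replicate 1 and not EV replicate 4. Nuggc, a nuclear GTPase of germinal centre cells, stood at 405, 197, 284 and 390.1 CPM. Il21r, the receptor for the helper cytokine IL-21, was nearly level at 351, 299, 325 and 338 CPM.

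Plasma cell genes followed that order in part. For 7 of 10 measured members EV replicates 1 and 4 both lay above EV replicates 2 and 3, against 19.6% of all genes. Prdm1, the repressor that starts plasma cell differentiation, stood at 106, 23, 49.2 and 63.6 CPM in EV replicates 1 to 4 and was the only member with over 4-fold between libraries, which it did not reach without EV replicate 1 or without EV replicate 2. Xbp1, which builds up the secretory apparatus, stood at 329, 202, 235 and 339 CPM. Sdc1, the surface marker CD138, stood at 54.6, 26.8, 40.2 and 30.6 CPM. EV replicate 2 was the lowest for each of these. Mzb1, a chaperone of immunoglobulin assembly, stood at 536, 445, 437 and 775 CPM. Tnfrsf17, the survival receptor BCMA of plasma cells, was at 3.99, 2.47, 2.2 and 3.25 CPM. Tnfrsf13b, the receptor TACI of mature B cells, ran the other way at 137, 279, 216 and 129 CPM, with EV replicates 2 and 3 on top.

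Follicular genes had the opposite order of libraries. For 7 of 8 members EV replicates 2 and 3 both lay above EV replicates 1 and 4, against 23.3% of all genes at a mean of at least 5 CPM. With EV replicate 4 set aside, EV replicate 1 lay below EV replicates 2 and 3 for all 8 members, against 41.9% of all genes. Fcer2a, the surface marker CD23, stood at 300.1, 767, 590.3 and 297 CPM in EV replicates 1 to 4. Ccr7, a chemokine receptor for the T cell zone, stood at 71.3, 128, 129.8 and 56.1 CPM. For both, the gap between the pairs was wider than the gap within either pair. Klf2, a factor of quiescent circulating lymphocytes, stood at 342, 500.5, 505 and 94 CPM and was the only member with over 4-fold, which rests on EV replicate 4. Cxcr5, the receptor for the follicle chemokine, varied less at 327, 549, 400 and 414 CPM and was the exception to the order, since EV replicate 4 lay above EV replicate 3.

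Marginal zone and B-1 genes were highest in EV replicate 2 for 7 of 11 measured members, against 27.2% of all genes at a mean of at least 5 CPM. Cr2, the complement receptor CD21, stood at 275, 1085, 572 and 194 CPM in EV replicates 1 to 4. Cd1d1, which presents lipid antigens, stood at 12.9, 50.9, 23.6 and 8.58 CPM. Both differed by over 4-fold, with EV replicate 2 highest and EV replicate 4 lowest, and neither did without one of these libraries. Notch2, the receptor that marginal zone fate needs, stood at 280, 408, 453 and 125 CPM. Dtx1, a target of Notch signals, stood at 276, 417, 252 and 302 CPM and was highest in EV replicate 2. Cd5, the surface marker of B-1a cells and T cells, was at 2.53, 6.9, 3.38 and 3.17 CPM.

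**Figure D2:**
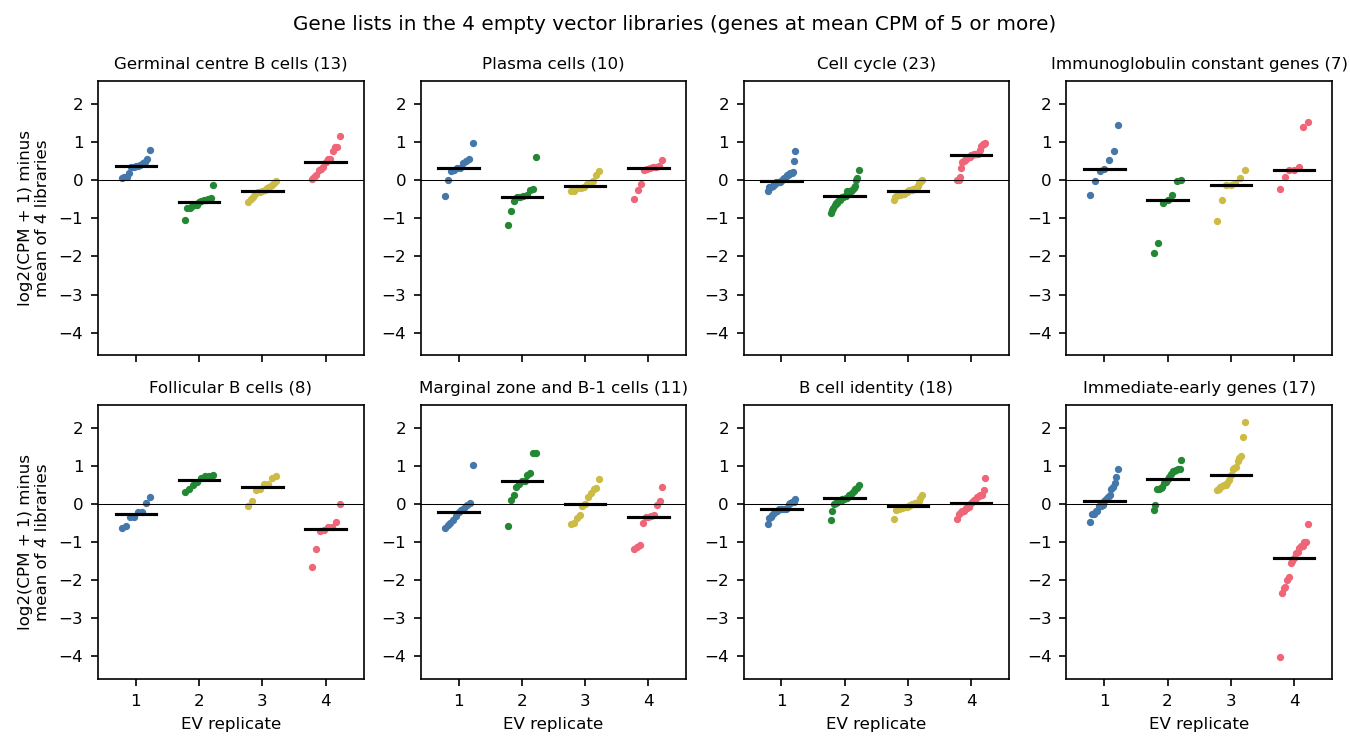
Each point is 1 gene of a list in 1 EV library, as log2(CPM + 1) minus that gene's mean over the 4 libraries (y axis), with black bars at the median of the list and the number of genes in brackets. Germinal centre medians lie above 0 in replicates 1 and 4 and below 0 in replicates 2 and 3. Follicular medians lie the other way. All 17 immediate-early genes are lowest in replicate 4, against 36.1% of all genes at a mean of at least 5 CPM.

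Cell cycle genes were above 1 CPM in all 4 libraries for all 23 members. For 19 of them EV replicates 1 and 4 both lay above EV replicates 2 and 3, against 19.6% of all genes. For 19, EV replicate 4 was the highest, against 37.4% of all genes at a mean of at least 5 CPM. None of the 23 differed by over 4-fold, which is near the 2.45% of all genes. Mki67, the proliferation marker Ki-67, stood at 778, 251, 451 and 483 CPM in EV replicates 1 to 4. Top2a, a topoisomerase of dividing cells, stood at 384, 156, 227 and 376 CPM. EV replicate 1 was highest for both and EV replicate 2 lowest. Cdk1, the kinase that starts mitosis, stood at 42.9, 23.2, 29.7 and 77.6 CPM. Mcm6, a subunit of the replication helicase, stood at 236, 171, 187 and 372 CPM. Rrm2, which makes DNA precursors, stood at 60.6, 47.7, 50.3 and 122 CPM. EV replicate 4 was the highest for these 3. Pcna, the sliding clamp of replication, was an exception at 108, 157, 131 and 132 CPM, highest in EV replicate 2. Ccnd2, a cyclin of early G1, was nearly level at 48.8, 51.9, 47.1 and 50 CPM.

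Erythroid, neutrophil and macrophage markers were highest in EV replicate 1 or 4, the libraries with the most germinal centre and cell cycle reads. T cell and natural killer genes were not, since their mean log2(CPM + 1) was highest in EV replicate 2. That of dendritic cell genes was highest in EV replicate 3. The summed level of 11 erythroid genes was 197, 41.2, 45.1 and 1097 CPM in EV replicates 1 to 4, that of 12 neutrophil genes 26.8, 11.1, 13.8 and 241 CPM, and that of 17 macrophage genes 1097, 326, 265 and 379 CPM. Dividing blood precursors express cell cycle genes too. The part of such cells in the germinal centre, plasma cell and cell cycle values was not tested.

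Among 36 transcription factors of B cells, 35 were above 1 CPM in all 4 libraries, Mef2b being the exception. Pax5, which commits cells to the B lineage, stood at 259, 307, 289.8 and 183 CPM in EV replicates 1 to 4. Ebf1, its early partner, stood at 269, 291, 298 and 212 CPM. Tcf3, the gene of the E2A proteins, stood at 337, 355, 316 and 392 CPM. Pax5 and Ebf1 were lowest in EV replicate 4 and Tcf3 was highest there. Ikzf1, the lymphoid zinc finger factor Ikaros, stood at 842, 706, 759 and 785 CPM. Spib, an ETS factor of B cells and plasmacytoid dendritic cells, stood at 741, 809, 678 and 911 CPM. Irf8, a factor of germinal centre B cells and myeloid cells, stood at 781, 789, 772 and 879 CPM. The libraries were within a narrow band for these 3.

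Some factors that set the choice between germinal centre and plasma cell fate varied more than the list median SD of 0.24. The SD of log2(CPM + 1) was 0.55 for Bach2 and 0.62 for Irf4, and 0.37 for Bcl6. Variation was not particular to that choice, since Pou2f1 and Bcl11a had SDs of 0.75 and 0.67. Bach2, a repressor that holds off plasma cell differentiation, stood at 703, 329.8, 525 and 319 CPM in EV replicates 1 to 4. Irf4, which drives plasma cell fate at high level, stood at 223, 201, 278 and 102 CPM. Both were lowest in EV replicate 4. Pou2af1, the coactivator OBF-1, stood at 1756, 1197, 1212 and 2585 CPM and was highest in EV replicate 4. Foxo1, which supports the proliferating zone of the germinal centre, was steady at 345, 275, 318 and 307 CPM. Myc, the growth regulator, stood at 59.6, 106, 114 and 42.7 CPM, with EV replicates 2 and 3 on top. The NF-kB subunit gene Rel ranged from 41.9 to 108 CPM and Nfkb1 from 243 to 339 CPM. Klf2 and Prdm1 were the only 2 factors past 4-fold. EV replicate 4 was the lowest library for 17 of 35 measured factors, against 36.1% of all genes at a mean of at least 5 CPM.

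Survival genes of the Bcl2 family had the list mean that varied least of the 25 lists, with an SD of 0.04 on the log2(CPM + 1) scale, although single members varied like other genes (median SD 0.27). Bcl2, the inhibitor of cell death, stood at 218, 243, 202 and 190.4 CPM in EV replicates 1 to 4, a mean of 213 ± 22.6 CPM (SD, n = 4). Whether transcripts of a transgene were counted on Bcl2 is not given in the sources used here. Mcl1, a short-lived inhibitor, stood at 599, 806, 749 and 550.5 CPM, with EV replicates 2 and 3 on top. Bcl2l1, the gene of Bcl-xL, stood at 12.7, 9.52, 11 and 14.7 CPM. Of the genes that promote death, Bcl2l11, the gene of Bim, stood at 237, 149, 168 and 227 CPM and was higher in EV replicates 1 and 4. Bbc3, the gene of Puma, stood at 45.6, 25.7, 26.7 and 50.9 CPM in the same order of pairs. Pmaip1, the gene of Noxa, varied most of the family at 71.3, 83.3, 109 and 34.2 CPM. None of the 12 measured members differed by over 4-fold, which is near the 2.45% of all genes. Bik and Bok stayed under 1 CPM in all 4 libraries.

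MHC class II genes, which present antigen to helper T cells, were among those with the most reads. Cd74, the invariant chain, stood at 11519, 15220.1, 11855 and 17063 CPM in EV replicates 1 to 4. H2-Aa, a chain of the I-A molecule, stood at 4768, 5898, 5106 and 7398 CPM. EV replicates 2 and 4 were the higher for both. Ciita, the activator of class II genes, stood at 859.9, 879, 1017 and 825 CPM and was highest in EV replicate 3. H2-Ob, which modulates peptide loading in B cells, was nearly level at 1693, 1715, 1712 and 1694 CPM. All 10 members were above 1 CPM in all 4 libraries. None differed by over 4-fold, which is near the 2.45% of all genes.

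The 20 named genes with the highest mean CPM took 9.69, 9.03, 8.84 and 11.7% of all gene counts in EV replicates 1 to 4. They held 5 immunoglobulin genes and Jchain, 4 class II genes, Cd22, the class I genes H2-K1 and B2m, and genes that every cell uses. Eef2, a translation elongation factor, stood at 3573, 4375, 3794 and 5641 CPM. Actb, the cytoskeletal actin, stood at 2433, 3252, 2431 and 3429 CPM. Both were highest in EV replicate 4 and next in EV replicate 2. Serinc3, a membrane protein, stood at 2382, 2392, 2314 and 3294 CPM, level in 3 libraries and higher in EV replicate 4.

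Markers of other cell types were found at low level and differed between the libraries by type. Macrophage genes were highest in EV replicate 1 for all 13 measured members, against 18.9% of all genes at a mean of at least 5 CPM. With no filter on level it was so for 16 of 17, Ccr2 being the exception, and 3 of the measured members reached 5 CPM through EV replicate 1 alone. Csf1r, the receptor for the macrophage growth factor, stood at 139.5, 35.8, 24.3 and 26.2 CPM in EV replicates 1 to 4. C1qb, a complement chain made by macrophages, stood at 84.8, 24.3, 15.4 and 36.1 CPM. Hmox1, which breaks down haem in macrophages of the spleen and liver, stood at 181, 47.9, 38.6 and 46.4 CPM. EV replicate 1 stood above the other 3 for each. Spic, a factor of macrophages that recycle iron, stood at 26.6, 7.85, 6.27 and 7.17 CPM and Mertk, a receptor for dying cells, at 26.9, 3.56, 2.79 and 3.17 CPM. Among EV replicates 2, 3 and 4, 0 of the 13 measured members differed by over 4-fold. This is near the 1.8% of all genes, so no result about the list is drawn from it.

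Erythroid genes were highest in EV replicate 4. EV replicate 4 was highest for all 11 members with no filter on level. Of the 7 with a mean of at least 5 CPM, 2 reached it through EV replicate 4 alone, so no share is drawn from those. Hbb-bs, a beta globin gene, stood at 94.7, 23.1, 22.6 and 534 CPM in EV replicates 1 to 4. Alas2, the first enzyme of erythroid haem synthesis, stood at 15.7, 1.96, 3 and 62.6 CPM. Slc4a1, the red cell anion exchanger, stood at 13, 0.363, 0.536 and 105 CPM. EV replicate 1 was next and EV replicates 2 and 3 were low for all 3. The globin genes have near-identical copies, so their single counts are uncertain. Klf1 and Gata1, nuclear factors of red cell precursors, were at 6.42 and 4.66 CPM in EV replicate 4 and under 1 CPM in the others.

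Most neutrophil genes were highest in EV replicate 4. This held for 10 of the 12 members with no filter on level. Only 4 reached a mean of 5 CPM, 3 of them through EV replicate 4 alone, so no share is drawn from those. S100a9, a calcium-binding protein of neutrophils, stood at 6.91, 4.36, 5.63 and 86.8 CPM in EV replicates 1 to 4. Ngp, a granule protein, stood at 1.84, 0.581, 0.965 and 37.8 CPM. Mpo, the granule enzyme of neutrophil precursors, stood at 0, 0, 0.0536 and 7.75 CPM. EV replicate 4 was far above the others for these 3. Csf3r, the receptor for the neutrophil growth factor, ran the other way at 8.52, 2.25, 3.27 and 2.15 CPM. Cxcr2, a chemokine receptor of mature neutrophils, stood at 1.46, 0.654, 0.536 and 0.431 CPM and was likewise highest in EV replicate 1 and lowest in EV replicate 4. Ly6g, a surface marker of mature neutrophils, did not exceed 0.196 CPM in any library.

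T cell markers were low in all 4 libraries. Cd3e, a chain of the T cell receptor complex, stood at 2, 4.72, 3.11 and 2.9 CPM in EV replicates 1 to 4. Trac, the constant gene of the receptor's alpha chain, stood at 3.38, 6.18, 2.89 and 3.8 CPM. EV replicate 2 was the highest for both. Cd2, which mouse B cells also express, made up most of the list's sum at 194, 188, 194 and 245 CPM. The natural killer gene Ncr1 ranged from 0.23 to 1.16 CPM and the platelet gene Pf4 from 0.536 to 1.37 CPM. Itgb3 was the only gene of the platelet list with a mean of at least 5 CPM. It stood at 179, 76.1, 87.4 and 159 CPM in EV replicates 1 to 4 and made up most of that list's sum. Of 13 endothelial and stromal genes, 9 were under 1 CPM in all 4 libraries. Pecam1, which B cells also express, was the only one of them with a mean of at least 5 CPM, at 146, 265, 218 and 111 CPM.

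Plasmacytoid dendritic cells carry B220 and can pass the bead enrichment. Siglech, their lectin, stood at 16.2, 14.2, 21.7 and 0.94 CPM in EV replicates 1 to 4. Ccr9, a chemokine receptor of these cells, stood at 4.91, 6.18, 6.54 and 0.392 CPM. Both were present in EV replicates 1, 2 and 3 and under 1 CPM in EV replicate 4. Itgax, the gene of CD11c on dendritic cells and some B cells, stood at 15.4, 12.6, 17.9 and 27.4 CPM and was highest in EV replicate 4. Xcr1, a receptor of conventional dendritic cells, ranged from 0.536 to 1.09 CPM.

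**Figure D3:**
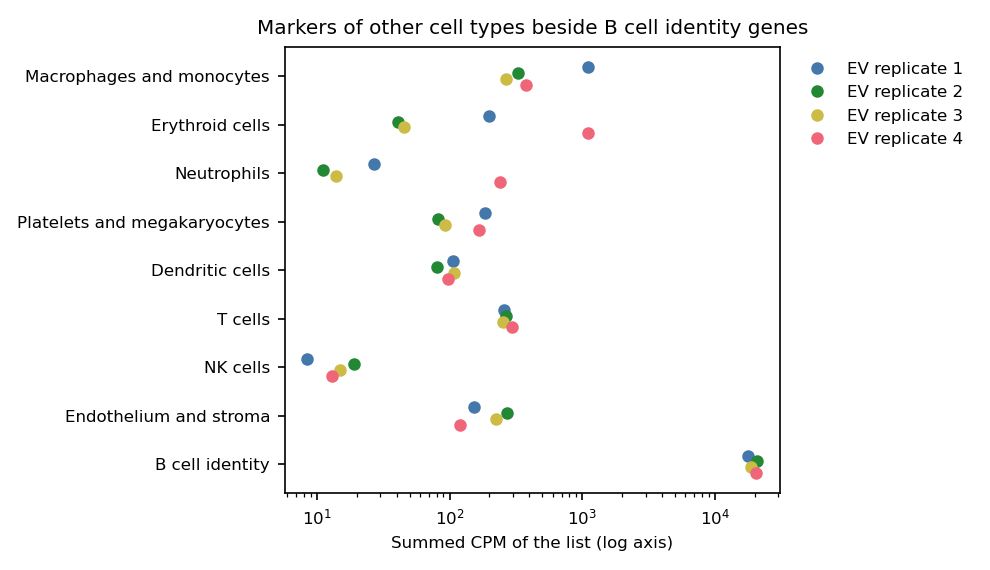
Summed CPM of each marker list (x axis, log scale) in each EV library (coloured points), with the B cell identity list for scale. Replicate 1 stands out for macrophage genes at 1097 CPM and replicate 4 for erythroid and neutrophil genes at 1097 and 241 CPM, while B cell identity sums lie between 17853 and 20915 CPM.

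Over all genes, the libraries differed by a biological coefficient of variation of 0.269 (edgeR common dispersion, intercept only). The median SD of log2(CPM + 1) was 0.23 and the 90th percentile 0.55. By the count of genes past 2-fold, EV replicates 2 and 3 were the closest pair, with 107 of 10333 genes. EV replicates 2 and 4 were the farthest by that count, with 999 genes. EV replicate 1 was 568, 327 and 575 genes away from EV replicates 2, 3 and 4. By that count the 3 libraries that share a title number included both the closest and the farthest pair. By the median absolute log2 difference the closest pair was EV replicates 1 and 3, which differ in title number. That median was 0.153 for them and 0.169 for EV replicates 2 and 3. Over 4-fold between the highest and the lowest library was seen for 253 genes. The library farthest from the rest was EV replicate 4 for 49 of them on the high side and 83 on the low side, and EV replicate 1 for 49 and 12. Without EV replicate 4, 103 genes were past 4-fold and 6 of the 25 most variable named genes stayed among the first 25.

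**Figure D4:**
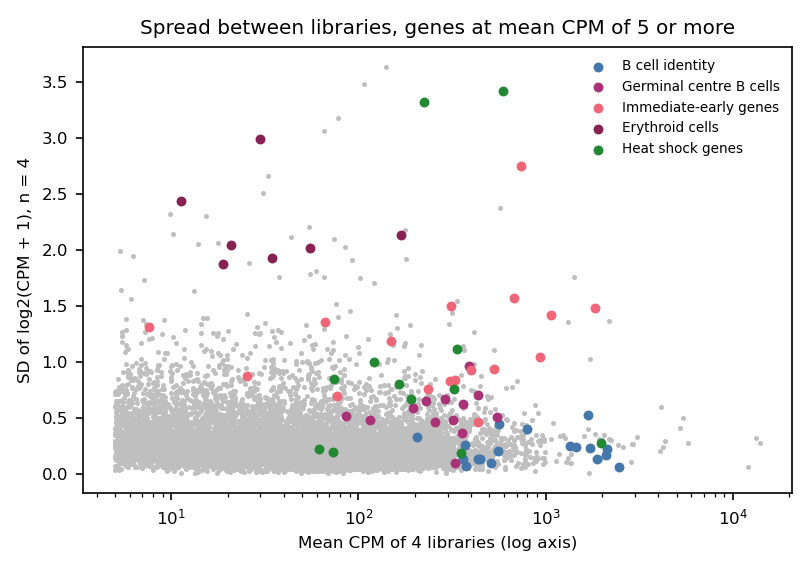
SD of log2(CPM + 1) over the 4 EV libraries (y axis) against mean CPM (x axis, log scale) for 10333 genes, with members of some lists coloured. B cell identity genes have a median SD of 0.21, near the 0.23 of all these genes. Erythroid genes have a median of 2.04, and 2 of the 7 drawn reached a mean of 5 CPM through EV replicate 4 alone.

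The 25 named genes with the largest SD, sex-linked genes left out, fell into a few kinds. They were led by Hspa1b and Hspa1a, neighbouring copies of the inducible heat shock protein Hsp70, with SDs of 3.41 and 3.32. Erythroid genes among them were Slc4a1, Alas2, Sptb and the globins Hbb-bs, Hbb-bt, Hba-a1 and Hba-a2, and Aqp1, Tmcc2 and Apol11b likewise had EV replicate 4 highest and EV replicate 1 next. Neutrophil genes were Ngp, S100a8, S100a9 and Ltf. Immediate-early and related genes were Fosb, Klf4, Egr1 and Dusp1, all lowest in EV replicate 4. Ighg3 and Siglech completed these kinds. Efna1, a membrane-bound ephrin, stood at 1.77, 2.91, 49.2 and 1.53 CPM and was high in EV replicate 3 alone. Slc15a2, a peptide transporter, stood at 93.4, 8.35, 6.54 and 42.2 CPM and was high in EV replicates 1 and 4. Dusp1 was the last gene taken, with an SD of 1.5, and Fos the first left out, with 1.48.

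**Figure D5:**
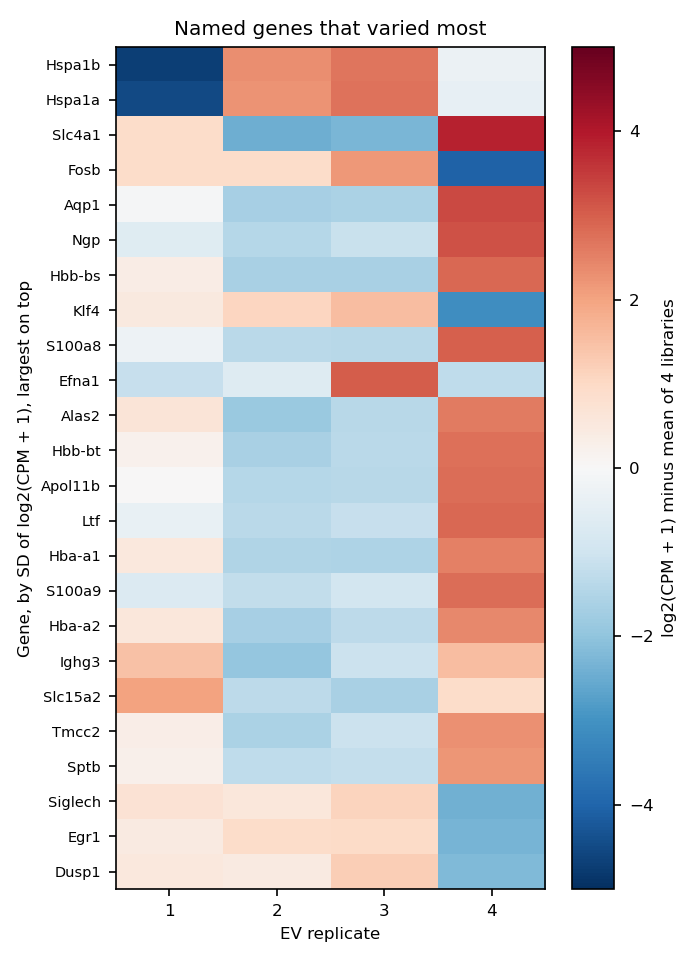
Genes among the 25 named ones with the largest SD of log2(CPM + 1) (rows, largest on top; 1 is not shown) in the 4 EV libraries (columns), coloured by log2(CPM + 1) minus the mean of the 4 libraries. Replicate 1 is low for Hspa1b and Hspa1a, and replicate 4 is high for erythroid and neutrophil genes and low for Fosb, Klf4, Siglech, Egr1 and Dusp1.

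Sex-linked genes aside, the Hsp70 pair had the largest SD. Hspa1b stood at 6.37, 963, 1253 and 158 CPM in EV replicates 1 to 4. Hspa1a stood at 2.23, 351, 490 and 54.4 CPM. EV replicate 1 was far below the others, EV replicates 2 and 3 were the highest and EV replicate 4 lay between. The genes are near-identical copies and reads that fit both are not counted, so the split between them is uncertain. Their promoters are shown because these 2 genes lead the 25 (RefSeq, GRCm38.p6, minus strand, chr17:34972157-34972406 and chr17:34959239-34959488, the 250 bases before the start site). Capitals mark GAANNTTC, the core of the element that heat shock factor binds.
Hspa1a: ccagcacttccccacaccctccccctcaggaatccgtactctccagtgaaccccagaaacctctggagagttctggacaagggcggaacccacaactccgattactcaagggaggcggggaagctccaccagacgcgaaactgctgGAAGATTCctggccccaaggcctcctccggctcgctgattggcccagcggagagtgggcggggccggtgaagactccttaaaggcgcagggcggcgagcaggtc
Hspa1b: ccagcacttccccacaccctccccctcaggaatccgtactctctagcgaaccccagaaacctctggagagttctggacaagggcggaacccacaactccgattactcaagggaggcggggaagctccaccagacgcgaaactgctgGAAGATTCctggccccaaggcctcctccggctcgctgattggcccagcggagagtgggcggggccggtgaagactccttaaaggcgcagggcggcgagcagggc
The match begins 104 bases before the start site in both, and 247 of the 250 bases are the same letter. On both strands and over the same length, 6.69% of the 32851 promoters of the table hold GAANNTTC. Of 14 heat shock genes, listed after values were seen, 10 are in the table. In any of their promoters 6 of these hold it, the near-identical Hspa1a and Hspa1b among them. The share of 6.69% is over single promoters and not over genes. A match describes letters and not a bound site.

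Other heat shock genes had much of the same order with smaller differences. Dnajb1, a cochaperone of Hsp70, stood at 104, 477, 555 and 209 CPM in EV replicates 1 to 4. Hspa8, the constitutive Hsc70, stood at 139, 453, 403 and 294 CPM. Hsp90aa1, the inducible Hsp90, stood at 75.5, 244, 224 and 113 CPM. EV replicate 1 was the lowest for each. It was so for 10 of 12 measured heat shock genes, against 24.9% of all genes at a mean of at least 5 CPM. The 12 include Hspa1a and Hspa1b, whose values were seen before the list was made. The count is therefore not independent of that pair. Hspe1, the mitochondrial chaperonin Hsp10, stood at 29.9, 117, 91.5 and 57.6 CPM. Hsph1, a large Hsp70 relative, was highest in EV replicate 3 at 114, 132, 327 and 189.9 CPM. Hsf1, the heat shock factor itself, varied little at 68.2, 87.7, 73.5 and 63.6 CPM, and so did Hspa4, another Hsp70 relative, at 355, 311, 331 and 419 CPM. EV replicate 1 is also the library with its own title number, and a difference between title numbers cannot be told apart from a difference of that 1 library.

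Immediate-early genes respond fast to signals and to the handling of cells. They were lowest in EV replicate 4 for all 17 members, against 36.1% of all genes at a mean of at least 5 CPM. Over 4-fold was seen for 11 of them, against 2.45% of all genes. Without EV replicate 4 it was seen for 0 of the 17, which is near the 0.987% of all genes. Fos, a subunit of the AP-1 factor, stood at 2285, 2075, 2706 and 304 CPM in EV replicates 1 to 4. Fosb, its relative, stood at 671, 674, 1593 and 20.7 CPM. Jun, the partner subunit, stood at 797, 1505, 1784 and 205 CPM. EV replicates 1, 2 and 3 were far above EV replicate 4 for all 3. Egr1, a zinc finger factor downstream of receptor signals, stood at 682, 952, 979 and 98.5 CPM. Dusp1, a phosphatase that turns off MAP kinases, stood at 342, 318, 545 and 50.5 CPM. Zfp36, which destabilises cytokine transcripts, stood at 906, 1447, 1103 and 279.8 CPM. Among EV replicates 1, 2 and 3, Fosb and Dusp1 were highest in EV replicate 3 and Zfp36 in EV replicate 2. Btg2, an inhibitor of proliferation, varied least of the list at 353, 552, 548 and 290.1 CPM.

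The promoters of Dusp1 and Fos are shown as the members on either side of the limit for the 25 most variable genes (RefSeq, GRCm38.p6, chr17:26508473-26508722 on the minus strand and chr12:85473640-85473889 on the plus strand, the 250 bases before the start site). Capitals mark TGACGT, the core of the cyclic AMP response element, on either strand.
Dusp1: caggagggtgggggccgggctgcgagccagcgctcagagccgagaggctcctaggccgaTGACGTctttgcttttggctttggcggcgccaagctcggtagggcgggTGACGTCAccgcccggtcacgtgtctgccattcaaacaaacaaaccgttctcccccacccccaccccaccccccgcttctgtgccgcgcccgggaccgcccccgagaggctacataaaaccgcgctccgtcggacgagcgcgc
Fos: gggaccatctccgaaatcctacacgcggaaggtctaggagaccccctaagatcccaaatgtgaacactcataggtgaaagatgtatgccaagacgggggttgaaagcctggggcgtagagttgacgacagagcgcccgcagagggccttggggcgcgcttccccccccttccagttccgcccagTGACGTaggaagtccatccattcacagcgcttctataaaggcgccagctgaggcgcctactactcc
Dusp1 holds 3 matches, 2 of which overlap on opposite strands in the longer run of capitals, and Fos holds 1. Of 14 immediate-early genes with a promoter in the table, 5 hold TGACGT in any of theirs. Of all promoters, taken singly, 6.47% do. The former is a count of genes and the latter a share of promoters, so they are not like for like.

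The low immediate-early levels of EV replicate 4 stood beside its low levels of very long transcripts, of Malat1 and of reads outside genes. Neat1, another RNA kept in the nucleus, stood at 245, 224, 213 and 81.5 CPM in EV replicates 1 to 4, and Ahnak, a giant scaffold protein, at 202, 240.1, 369 and 56.7 CPM. The part of these library differences in the immediate-early, transcription factor, Notch2 and follicular values was not tested.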

How the data were processed

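The deposited values were raw counts, 1 whole number for each gene and library, to which the authors had applied no scaling. The submitters' processing notes list CASAVA 1.8.2, HTSeq 0.6.0 and the build mm9. The aligner, annotation and strand setting were not given in the sources used here, so reads of overlapping and antisense genes may be mixed. The labels name a TruSeq RNA kit. The 5 summary rows were dropped and counts of the 4 libraries scaled to CPM by the total over 37583 gene rows. Symbols were found for 32854 rows in a table of identifiers and in a RefSeq gene table (GRCm38.p6, names only). No lengths were used, so no level was divided by length and a profile by length was not made.

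Spread was measured as the SD of log2(CPM + 1) and with edgeR 4.0.16 in R 4.3.3 (filterByExpr, intercept only), tried on simulated data. DESeq2 1.42.0 gave alternative size factors. Python 3.11.15 and pandas 2.3.3 did the rest. Named genes were Kmt2d, 4 given markers, the 20 with the highest mean CPM, the 25 with the largest SD at a mean of at least 5 CPM (segments, models and sex-linked genes left out), and per list up to 5 by level, 2 by spread and markers near 0. A further 51 genes and segments were named after their values were seen. The list of heat shock genes, the list of very long transcripts and the orders of libraries within lists were chosen after the values were seen. Members and lists were chosen with earlier results of these data known. No pair of libraries agreed within sampling noise (chi-square per gene at least 23). Alternatives were other scalings, pseudocounts and filters, and leaving out each library. No comparison between groups was tested, since the libraries form 1 group; single libraries were screened with Dixon's criterion. A few named genes are not reported here.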

Additional observations from a re-analysis of the deposited data

Results flagged for a closer look

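24 of 225 values examined had 1 library set apart from the other 3 by most of the range of the 4 (Dixon's ratio on the log2(CPM + 1) scale). Chance flags about 1 in 20 groups, and over all genes at a mean of at least 5 CPM 5.74% were set apart in this way. The values examined include genes picked for a large SD in these same libraries or after their values were seen. The count is therefore not comparable with those shares. EV replicate 4 was the low library for 12 of the values and the high one for 6.

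Low in EV replicate 4 were the Y-linked genes Ddx3y, Eif2s3y, Kdm5d and Uty, at 0.235, 0.157, 0.274 and 0.117 CPM. Fos was at 304 CPM there and Egr1 at 98.5 CPM. Neat1 was at 81.5 CPM there. Siglech, a gene of plasmacytoid dendritic cells, was at 0.94 CPM. Ptprc was at 1629 CPM against 1929 to 1980.3 CPM in the others. The transcription factor genes Pou2f2 and Id2 were at 151 and 24 CPM, and the mean log2(CPM + 1) of the transcription factor list was 7.12 against 7.42 to 7.48.

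High in EV replicate 4 were S100a9 at 86.8 CPM, Mcm5 at 278 CPM, Cd2 at 245 CPM, Irf8 at 879 CPM and Serinc3, a membrane protein, at 3294 CPM. The differences of Irf8 and Cd2 from the next library were small beside those of S100a9. Igkv4-74 was at 617 CPM in EV replicate 4 against 22.2 to 36 CPM in the others. Ighv1-18 was low in EV replicate 2, at 38.3 CPM against 168 to 222 CPM. High in EV replicate 1 were the macrophage genes Mertk, Spic, Hmox1 and Slc40a1, at 26.9, 26.6, 181 and 119 CPM. Efna1 was high in EV replicate 3, at 49.2 CPM against 1.53 to 2.91 CPM in the others.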

How the results depend on the processing

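TMM scaling, DESeq2 size factors and totals without immunoglobulin genes shifted the median gene by at most 0.08 on the log2 scale. All 12 orders of libraries within lists that were recounted under these 3 scalings, an alternative added after the data were seen, stayed within 1.5 times their counts. Under these scalings 1 of 25 list levels moved by more than the SD between libraries: the Bcl2 family, from 5.33 to 5.39 on the log2(CPM + 1) scale with totals without immunoglobulin genes. The same totals moved the means of Ccnd2, Cd22, H2-Ob and Ighm, to 51.9, 2599, 1787 and 12605 CPM, as a smaller total does by construction. Leaving out EV replicate 4 moved the mean of 24 of 235 named genes by over 1.5 times, and leaving out EV replicate 1, 2 or 3 did so for 10, 2 and 5. Without EV replicate 4 the mean of Alas2 went from 20.8 to 6.9 CPM, that of Aqp1 from 9.9 to 1.06 CPM and that of Apol11b from 5.35 to 0.7 CPM. The 253 genes past 4-fold became 134 with CPM + 5, and 103 to 209 with 1 library left out, lowest without EV replicate 4. Of the 25 most variable named genes, 6 to 22 stayed with 1 library left out. Genes under about 0.23 CPM cannot be told from 0 at this depth. No paired analysis was possible because the 4 libraries form 1 group and were compared with no other.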

Other observations

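Interferon-stimulated genes were lowest in EV replicate 4 for 9 of 13 measured members, against 36.1% of all genes at a mean of at least 5 CPM, and for 7 EV replicates 2 and 3 both lay above the others, against 23.3%. Of 15 members, 14 were above 1 CPM in all 4 libraries. Isg15, a ubiquitin-like protein, stood at 7.91, 11.3, 6.49 and 12.3 CPM in EV replicates 1 to 4. Ifit1, an RNA-binding effector, stood at 2.76, 3.63, 3.43 and 2.62 CPM. Irf7, the regulator of interferon genes, stood at 70, 54, 60.1 and 56.6 CPM. Rsad2, an antiviral enzyme, stood at 4.53, 3.12, 2.41 and 13.5 CPM and reached a mean of 5 CPM through EV replicate 4 alone. It was the only member past 4-fold, against 2.45% of all genes, so no share is drawn from it. Without EV replicate 3 or without EV replicate 4, Rsad2 was not past 4-fold. Mx1, an antiviral GTPase, had EV replicates 2 and 3 on top at 7.52, 14.7, 14 and 3.52 CPM.

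Of 9 measured activation and memory genes, 4 had EV replicates 1 and 4 above EV replicates 2 and 3, against 19.6% of all genes. The reverse held for 3 of them, against 23.3%. No result about the list is drawn from counts this small. Nt5e, the ecto-enzyme CD73, stood at 196, 78.6, 119 and 228 CPM in EV replicates 1 to 4. Cd80, a costimulatory ligand, stood at 30.2, 21.4, 19.1 and 27.4 CPM. Both were highest in EV replicates 1 and 4. Cd38, an ecto-enzyme that mouse germinal centre B cells carry at low level, stood at 152, 238, 179 and 144 CPM. Icosl, the ligand of ICOS on helper T cells, stood at 355, 489.9, 446 and 324 CPM. Both were highest in EV replicates 2 and 3. Cd69, an early activation antigen, stood at 237, 154, 263 and 45.8 CPM, with EV replicate 4 lowest. It was the only member past 4-fold, against 2.45% of all genes, and was not past it without EV replicate 4.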
